A study of Caenorhabditis elegans with 2 samples.

Results

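The nuclear tRNA genes on the 5 autosomes of Caenorhabditis elegans were examined for UNC-3 peaks. The members were all genes of biotype tRNA on those chromosomes in Ensembl's WBcel235 annotation, 336 of the 612 nuclear tRNA genes, with the other 276 on X. A gene was counted as having a peak when a deposited peak summit lay inside it or within 500 bp of either end. Whole late embryos aged 2.5 hours, synchronised by egg bleaching, were used for chromatin immunoprecipitation followed by sequencing. The strain was RW12259, whose allele st12259[unc-3::TY1::EGFP::3xFLAG] was made by a CRISPR insertion aimed at unc-3. The labels write II after the allele, whereas the annotation has unc-3 on X. Every embryo carried the tagged protein, so there was 1 group of 2 biological replicates, and neither an untagged strain nor a control library was analysed here. The description names an antibody against GFP, the antibody field names unc-3, and the chromatin was sonicated to between 200 and 800 bp.

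UNC-3 is the worm's member of the COE family of transcription factors and is known for specifying cholinergic motor neurons. Transfer RNA genes are transcribed by RNA polymerase III from 2 short elements inside the gene, the A box near the 5′ end and the B box in the part that encodes the T arm. The factor TFIIIC binds both boxes and brings in TFIIIB, which recruits the polymerase, and a run of T residues after the gene ends transcription. These genes are transcribed in nearly all cells.

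The sequences of 9 of the genes show what the members have in common and how far the gene itself differs between those with and without a peak. All were read from the WBcel235 genome, in the direction of transcription, with the A box (TNGNNNA starting at base 7 to 9 of the gene) and the B box (GTTCNANNC) in capitals. The first 3 lie at summits of high signal on II and V: ZC455.t1 (serine, chrV:12780386-12780467, minus strand), F57F5.t1 (isoleucine, chrV:12002176-12002260, plus strand) and W09G10.t1 (histidine, chrII:3521487-3521558, minus strand).
ZC455.t1: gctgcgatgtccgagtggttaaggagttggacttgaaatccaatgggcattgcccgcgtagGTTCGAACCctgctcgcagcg
F57F5.t1: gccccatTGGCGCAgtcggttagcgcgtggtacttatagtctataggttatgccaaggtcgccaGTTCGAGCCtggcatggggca
W09G10.t1: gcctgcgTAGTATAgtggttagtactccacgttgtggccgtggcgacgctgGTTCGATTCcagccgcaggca

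The next 3 are alanine genes of the same sequence, chosen after their values were seen, of which the first 2 have a main peak and the last has none. They are ZK622.t1 (chrII:5292332-5292403, plus strand), F15B9.t1 (chrV:13003509-13003580, minus strand) and M03A1.t1 (chrII:4565389-4565460, plus strand).
ZK622.t1: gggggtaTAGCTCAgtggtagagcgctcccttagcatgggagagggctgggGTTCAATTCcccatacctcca
F15B9.t1: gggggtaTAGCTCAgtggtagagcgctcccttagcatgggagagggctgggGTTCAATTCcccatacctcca
M03A1.t1: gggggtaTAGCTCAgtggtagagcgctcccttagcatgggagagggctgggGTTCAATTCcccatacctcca
The last 3 are proline genes, also chosen after their values were seen. T23F1.t2 (chrV:15465225-15465296, minus strand) has a main peak and F02H6.t1 (chrIV:14225102-14225173, plus strand), of the same sequence, has none. K12H4.t1 (chrIII:8069405-8069476, plus strand) differs from them by C55G, counted from base 1 at the gene's 5′ end, and does not match the B box pattern.
T23F1.t2: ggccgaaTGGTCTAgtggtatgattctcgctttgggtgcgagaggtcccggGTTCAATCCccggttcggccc
F02H6.t1: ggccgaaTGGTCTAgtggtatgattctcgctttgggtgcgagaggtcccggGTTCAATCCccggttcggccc
K12H4.t1: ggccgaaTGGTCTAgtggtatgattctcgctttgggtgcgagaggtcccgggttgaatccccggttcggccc

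The elements of tRNA genes were counted in the members as a description, not as a test of the annotation. The B box pattern was found on the gene's strand in 319 of 336 members, compared with 1.21% of 72 bp windows on either strand of the autosomes, and began at base 53 in the median. The A box pattern was found in 306, compared with 5.75% of 9 bp windows, the length that holds the allowed starts. A run of TTTT began within 30 bp after the gene in 332, compared with 36.3% of 30 bp windows. The median length was 72 bp (68 to 122 bp), RefSeq gave an amino acid for 334 members, and 21 kinds were named, selenocysteine included. The 336 members had only 137 different sequences, and 251 had at least 1 exact copy elsewhere in the genome, up to 29 copies in all. With 100 bp of flank on each side every member was unique.

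The peaks came from 6 lists that the authors deposited. The main list, the conservative list for both replicates, held 631 peaks, and a ranked list for both replicates held 30297 peaks of all strengths. Each replicate had a ranked list (33914 peaks in replicate 1 and 34079 in replicate 2) and a shorter thresholded list (353 and 384). The deposited signal of a peak measures its strength on a scale that the sources used here do not define. Signals of lists for both replicates and of lists for 1 replicate need not share a scale, so the 2 kinds were not compared. The replicates' own lists need not share a scale either. Where 1 replicate is called higher below, this describes the deposited values only. The lists hold no read counts, so sequencing depth is unknown, and the exact Clopper-Pearson 95% intervals given here cover counting error only. Neighbouring genes can share a summit, so genes are not independent of each other and the p-values below measure spread over genes, not over embryos.

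Autosomal tRNA genes had a main peak far more often than the autosomes at large. In the main list 92 of 336 members (27.4%, 95% interval 22.7 to 32.5) had a summit within 500 bp, compared with 0.624% of all positions of a 72 bp window on the autosomes. Of all annotated autosomal genes 2.20% had one (899 of 40868), and of protein-coding genes 3.05% (526 of 17242). The 92 members were served by 82 summits, which made up 16.5% of the 497 main summits on the autosomes. At 10 summits 2 members shared the peak, and no summit served more.

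Each replicate alone gave fewer peaks at these genes, but again far above the background. In the thresholded list of replicate 1, 55 members (16.4%, 12.6 to 20.8) had a summit, compared with 0.347% of window positions. In that of replicate 2, 47 members (13.99%, 10.5 to 18.2) had one, compared with 0.35% of positions. Of the 92 members with a main peak, 32 were in both replicates' thresholded lists, 17 in replicate 1's alone, 15 in replicate 2's alone and 28 in neither.

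Of the 244 members without a main peak, 6 were in the thresholded list of replicate 1 and none in that of replicate 2. These were F14B4.t1 (arginine), C17D12.t2 (lysine), F14B6.t2 (methionine), F10C1.t1 (glycine), C14B9.t2 (leucine) and ZC412.t2 (cysteine), named because they are few. Their replicate 1 signals were 39.1 to 49.3. Their replicate 2 signals were 14.3 to 22.5 at 5 genes, and F14B4.t1 had no ranked summit in replicate 2.

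The ranked lists, which hold weaker peaks, reached more of the genes. A summit of the ranked list for both replicates lay within 500 bp of 228 members (67.9%, 62.6 to 72.8), compared with 26.5% of window positions and 56.8% of protein-coding genes. In the ranked list of replicate 1 it was 238 members (70.8%, background 32.8%), and in that of replicate 2 it was 243 (72.3%, background 32.8%). Of protein-coding genes 66.1% and 66.0% had a summit in these 2 lists. Among the 244 members without a main peak, 136 (55.7%) had a summit in the ranked list for both replicates, compared with 26.5% of window positions. Protein-coding genes were counted over their whole length, so their shares are not matched for length to those of tRNA genes. Of the 244, 100 had a summit in all 3 ranked lists and 48 had none in any. Of those 48 genes, 14 lay on V (of 78 members there), 13 on IV (of 71), 9 on I (of 66), 7 on III (of 64) and 5 on II (of 57). The chromosomes were not tested against each other.

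**Figure D1:**
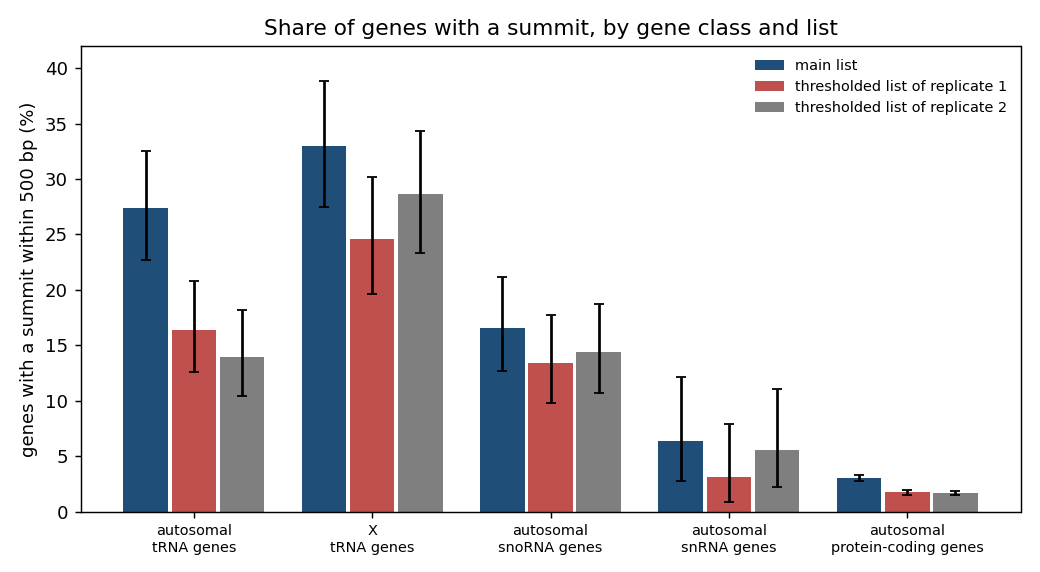
Bars show the percentage of genes with a summit within 500 bp in the main list and in each replicate's thresholded list, for 5 classes of genes, and whiskers are exact 95% intervals that cover counting error only. Autosomal tRNA genes stand at 27.4% in the main list, and in the list of replicate 2 alone they stand at 13.99%, beside 14.4% for snoRNA genes.

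In the main list, autosomal tRNA genes had a peak more often than snRNA and snoRNA genes on the same chromosomes, and the difference from snoRNA genes held in neither replicate's own list. Small nuclear RNA (snRNA) genes, whose products take part in splicing, had one at 8 of 126 (6.35%, odds ratio 5.56, two-sided Fisher's exact test with Benjamini-Hochberg adjustment over 8 tests, adjusted p = 1.75e-06). Small nucleolar RNA (snoRNA) genes, whose products guide the modification of ribosomal RNA, had one at 52 of 313 (16.6%, odds ratio 1.89, adjusted p = 0.00504 by the same exact test). None of the 52 shared its summit with a tRNA gene. The difference from snRNA genes also passed in each replicate's thresholded list. The difference from snoRNA genes did not: in replicate 1's list it was 16.4% against 13.4% (Fisher's exact test, adjusted p = 0.515), and in replicate 2's it was 13.99% against 14.4% (adjusted p = 1).

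On X, 91 of 276 tRNA genes had a main peak (33.0%, 27.5 to 38.9). The difference, autosomes minus X, was -5.59 percentage points and did not pass (odds ratio for autosomes 0.767, two-sided Fisher's exact test, adjusted p = 0.249). It passed in replicate 2's own list, with 13.99% of autosomal and 28.6% of X genes (Fisher's exact test, adjusted p = 7.36e-05), and was 16.4% against 24.6% in that of replicate 1 (adjusted p = 0.0591). With only the main peaks above the median signal it was -12.06 points and passed (Fisher's exact test, adjusted p = 0.00248). The median main signal of the summits at tRNA genes was 86.1 on the autosomes (quartiles 74.5 and 117.2, 82 summits) and 122.2 on X (88.1 and 169.0, 78 summits). Clustering differs as well: 62 autosomal tRNA genes (18.5%) had another tRNA gene within 500 bp, in pairs only, compared with 108 on X (39.1%), in groups of up to 6.

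In the main list, III had the highest share with a peak among the autosomes and V the lowest, an order that neither replicate's thresholded list kept in full. On III 25 of 64 members (39.1%, 27.1 to 52.1) had one, and on V 12 of 78 (15.4%, 8.21 to 25.3). Chromosomes I, II and IV lay between, at 25.8%, 28.1% and 31.0%. The intervals of III and V do not overlap, but the chromosomes were compared after their values were seen and no test was made. In the thresholded list of replicate 1 the shares on I to V were 16.7%, 17.5%, 23.4%, 12.7% and 12.8%, so that IV was the lowest. In that of replicate 2 they were 10.6%, 19.3%, 18.8%, 11.3% and 11.5%, so that I was the lowest and II the highest. The intervals overlapped in both lists. Of the members on V, 65.4% had an exact copy elsewhere, the lowest share of the 5 chromosomes, whereas I had the highest, 81.8%.

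The summits lay on the genes themselves. Counted by gene (92 genes, 82 distinct summits), the nearest main summit lay inside the tRNA gene at 69, upstream at 17 and downstream at 6. Of those outside the gene, 15 lay within 100 bp of a gene end, 5 between 100 and 200 bp, none between 200 and 300 bp and 3 beyond that. Within 100 bp of the gene's midpoint were 81 of the 92 (88.0%, 79.6 to 93.9), compared with 20.1% if summits were placed evenly within 500 bp (exact binomial test, two-sided, p = 1.58e-44). This test counts a shared summit once for each gene. With 1 member per locus it was 76 of 82, 72.6 percentage points above even placement. In the direction of transcription the median summit was 17 bp after the gene's first base (quartiles 5.75 and 35), nearer to the A box than to the B box. Of the 82 peaks 77 were 264 bp wide.

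**Figure D2:**
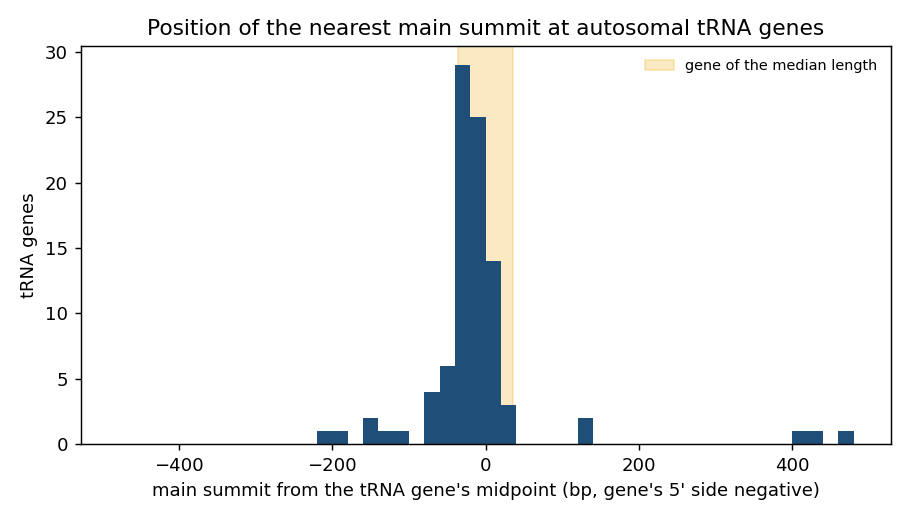
The histogram counts the 92 autosomal tRNA genes with a main peak by the distance in bp from the gene's midpoint to its nearest main summit, with the 5′ side negative and the shaded band marking a gene of the median length of 72 bp. Most summits fall in the 5′ part of the gene, at a median of -19.25 bp from the midpoint, and 3 genes stand apart at over 300 bp.

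The limit of 500 bp decided few members. Just inside it were T22F3.t3 (435 bp from its summit, main signal 74.4), M01E10.t2 (388 bp, 57.7) and K11H3.t1 (366 bp, 137.8). Just outside were F22B7.t4 (535 bp, 79.7), Y43F4A.t1 (594 bp, 59.7) and T22F3.t2 (624 bp, 74.4). All of these but T22F3.t3 have another tRNA gene closer to the same summit.

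Main signals at the 92 members ran from 55.4 to 203.2 with a median of 85.2 (quartiles 71.9 and 117.6). The nearest ranked summits had median signals of 44.6 in replicate 1 (91 genes) and 41.5 in replicate 2 (92 genes). Only ZK622.t2, a glutamate gene, lacked a ranked summit in replicate 1 (main signal 74.6, replicate 2 signal 33.4). At the 135 members whose ranked peak was not in the main list, other than 1 described below, the ranked signal had a median of 36.2 (2.55 to 70.4), with medians of 20.5 in replicate 1 and 17.8 in replicate 2. The authors' threshold separates these sets, so the medians are a description.

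Over 81 main summits with a ranked summit near the same gene in both replicates, the log10 signals of the replicates had a Pearson r of 0.649 and a Spearman rho of 0.578. The correlation is across summits already chosen for agreement between the same 2 libraries. The deposited value was higher in replicate 1 at 51 of the 81, on scales that need not be equal. With ranked summits matched to the main summit within 100 bp, the ratio of replicate 1 to replicate 2 had a median of 1.16 at tRNA summits (0.464 to 2.19, 80 summits) and of 1.08 at the other autosomal main summits (0.413 to 2.44, 387 summits).

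**Figure D3:**
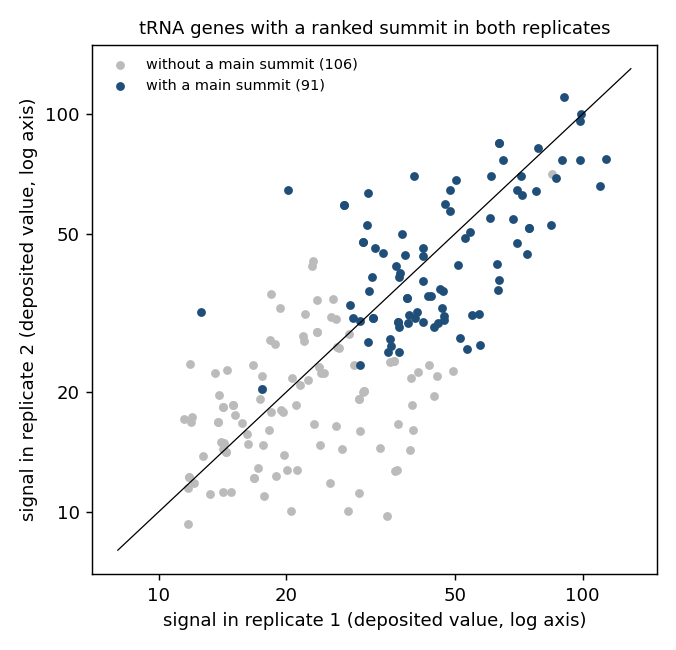
Each point is an autosomal tRNA gene with a ranked summit within 500 bp in both replicates, with the deposited signal in replicate 1 on the horizontal and in replicate 2 on the vertical axis, both on log scales, and the line marks equal values. Genes with a main peak (91 points, medians near 44.6 and 41.5) lie above and to the right of most of those without (106 points), with some overlap.

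The highest main signals came from genes for several amino acids. Most of these genes lay in introns, as did 54 of the 92 members with a main peak and 188 of all 336 members. The serine gene ZC455.t1, in an intron of ZC455.1, had a main signal of 203.2, with 90.6 in replicate 1 and 110.4 in replicate 2. F57F5.t1, an intergenic isoleucine gene, had 197.3 (98.5 and 96.2). The tryptophan gene B0523.t1, in an intron of fli-1, which encodes an actin-binding protein of the flightless family, had 196.5 (113.7 and 77.1). These stood at ranks 29, 35 and 39 of the 631 main peaks, so none of the 28 strongest main peaks was at an autosomal tRNA gene.

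Next came T21B4.t1, an isoleucine gene in an intron of the collagen gene col-85, with a main signal of 195.7 (99.1 in replicate 1 and 99.96 in replicate 2). The histidine gene W09G10.t1, in an intron of the collagen gene col-72, had 175.6 (109.9 and 65.8), and the cysteine gene C37A2.t1, in an intron of the cyclin E gene cye-1, had 172.5 (98.5 and 76.4). The alanine genes ZK622.t1 (intergenic) and K06A4.t1 (in swt-5, which encodes a sugar transporter of the SWEET family) had 166.4 and 158.1. In all of these the thresholded lists of both replicates held the summit. Of these 8 genes, B0523.t1, W09G10.t1, C37A2.t1, ZK622.t1 and F57F5.t1 were higher in replicate 1, and ZC455.t1, T21B4.t1 and K06A4.t1 in replicate 2.

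The remaining loci of the 12 with the highest main signal were F33G12.t1 (isoleucine, in F33G12.3, 156.3), the serine pair F42A10.t1 and F42A10.t2 (intergenic, 1 shared summit, 148.3), F29C4.t1 (arginine, in the collagen gene col-99, 142.5) and T15B12.t1 (methionine, in T15B12.1, 138.9). The pair had 63.5 in replicate 1 and 84.6 in replicate 2. By the signal of the tRNA gene inside, the 10 leading host genes were ZC455.1, fli-1, col-85, col-72, cye-1, swt-5, F33G12.3, col-99, T15B12.1 and inft-2, a formin gene that holds F15B9.t1 (138.5). The peak lies on the tRNA gene in these hosts, and whether it bears on the host gene was not measured.

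The setting of the gene made no difference that passed. In introns of protein-coding genes lay 188 members, of which 54 had a main peak (28.7%, 22.4 to 35.8), and 139 were intergenic, of which 37 had one (26.6%, 19.5 to 34.8; adjusted p = 0.811 by Fisher's exact test). The median main signal was 86.2 in introns and 77.9 between genes. The 9 members that overlap an exon included 1 with a main peak, the glutamate gene Y69A2AR.t2 in mdf-2, with a main signal of 88.2 (42.1 in replicate 1 and 43.9 in replicate 2). In all 152 host genes held a member and 50 of them a member with a main peak.

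Strand within the host gave no difference that passed. On the host's strand 32 of 111 intronic genes had a main peak (28.8%), and on the opposite strand 22 of 77 (28.6%, adjusted p = 1 by the same exact test). The median main signal was 83.8 on the same and 106.9 on the opposite strand, with wide quartiles (70.3 to 102.2 and 75.7 to 138.3). Nearness to protein-coding starts was also looked at. Of the 267 members over 500 bp from the annotated 5′ end of any protein-coding gene, 70 had a main peak (26.2%). Of the 69 members nearer to such an end 22 had one, and the difference was not tested.

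Members with a tRNA neighbour had a main peak in 22 of 62 cases (35.5%, 23.7 to 48.7), compared with 70 of 274 solitary genes (25.5%, 20.5 to 31.1; Fisher's exact test, adjusted p = 0.235). Since 1 summit can lie within 500 bp of both genes of a pair, the share depends on the distance allowed: with summits within 100 bp the difference, pairs minus solitary genes, was -2.97 percentage points (adjusted p = 0.746), and with 1000 bp it was 16.5 points (Fisher's exact test, adjusted p = 0.0276). The members fell into 274 single genes and 31 pairs, of which II had 11. The first pair along each autosome serves as an example. Of these 5, the glycine pair C12C8.t6 and C12C8.t1 in uggt-2, which encodes a glycoprotein folding sensor, had 1 main summit (70.2) near both genes. The methionine and glutamate pair Y22D7AL.t3 and Y22D7AL.t4 had one as well (75.1). The pairs T05A8.t2 and T05A8.t1 (leucine), F08G5.t3 and F08G5.t2 (glutamine) and T22F3.t4 and T22F3.t1 (proline, in the glycogen phosphorylase gene pygl-1) had none.

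Peaks were spread over nearly all amino acids. Of the 21 kinds named, 20 had at least 1 member with a main peak, the exception being the single selenocysteine gene. The share was highest for arginine (8 of 17, 47.1%, 22.98 to 72.2) and glutamate (8 of 18, 44.4%) and lowest for histidine (1 of 11, 9.09%, 0.230 to 41.3) and asparagine (2 of 14, 14.3%). All of these intervals hold the share of all members. The largest kind, glycine, had 9 of 35 (25.7%), with a median main signal of 70.2, and lysine had 10 of 28 (35.7%), with 87.8. Isoleucine genes had a main peak at 3 of 16, with a median main signal of 195.7. Serine genes had one at 5 of 21, with a median of 148.3, and these 5 genes rest on 3 summits.

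**Figure D4:**
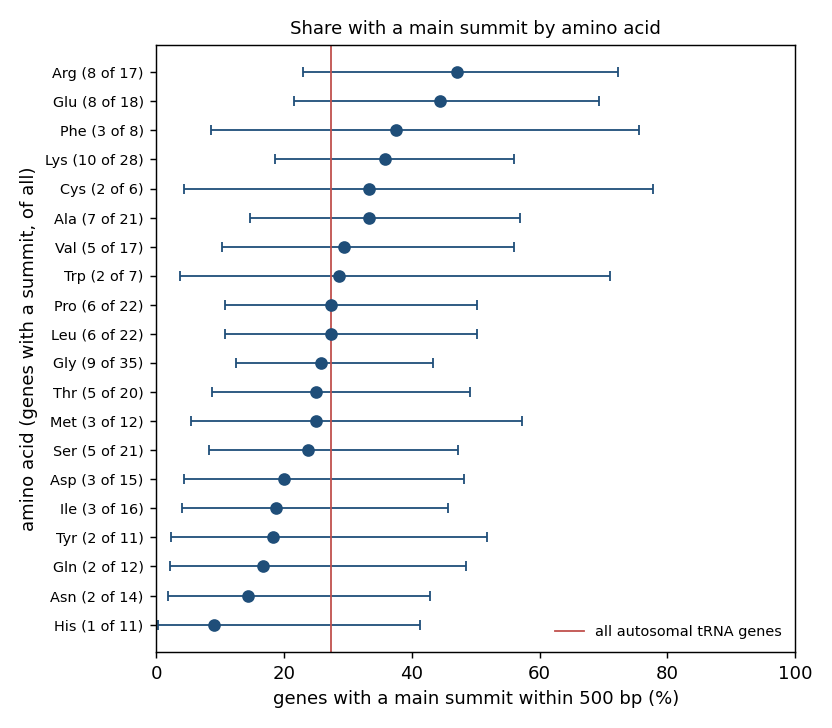
Points give the percentage of autosomal tRNA genes with a main peak for each amino acid with at least 5 genes, whiskers are exact 95% intervals that cover counting error only, and the line marks the share of all 336 genes. The shares run from 9.09% for histidine to 47.1% for arginine, and every interval includes the line at 27.4%.

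The B box pattern gave no difference that passed. Of the 319 members with the B box pattern 89 had a main peak (27.9%), and of the 17 without it 3 (17.6%, 3.80 to 43.4; Fisher's exact test, adjusted p = 0.769). These 3 were Y22D7AL.t3 and T15B12.t1, both methionine genes, and Y69A2AR.t2. K12H4.t1, whose sequence is printed above beside its proline relatives, had no main peak but a ranked one, with a ranked signal of 38.6 and 26.4 in replicate 1, and none in replicate 2. The A box pattern was absent from 30 members, of which 5 had a main peak, all of them serine genes such as ZC455.t1. Most of the 30 were serine genes. Of all 21 serine genes 23.8% had a main peak, compared with 27.4% of all members. Of the 4 members without a run of TTTT in the 30 bp after the gene none had a main peak, which is too few to set apart from the rest (95% interval up to 60.2%).

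Members whose exact sequence occurs more than once in the genome had a main peak more often than those that occur once. Of 251 repeated genes 78 had one (31.1%, 25.4 to 37.2), compared with 14 of 85 unique genes (16.5%, 9.31 to 26.1; odds ratio for unique genes 0.437, two-sided Fisher's exact test, adjusted p = 0.0291). The direction was the same in each replicate's thresholded list, where the difference was 10.9 percentage points in replicate 2 (Fisher's exact test, adjusted p = 0.0370) and 9.31 in replicate 1 (adjusted p = 0.162). With only the main peaks above the median signal it did not pass (adjusted p = 0.0982 by the same exact test). Median main signals were 86.1 for repeated and 82.6 for unique genes. Reads that lie wholly within a repeated gene cannot be placed on 1 copy, and the sources used here do not say how such reads were treated, so the part of read placement was not tested.

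Genes of the same sequence had different outcomes. Of 43 groups of members with identical sequence, 33 held both genes with and genes without a main peak, 10 held none with one, and in no group did all members have one. Of all repeated genes 31.1% had a main peak, and how many mixed groups this share alone would give was not tested. Among the 18 glycine genes of the largest group, with anticodon UCC, 7 had a main peak. The highest was Y82E9BR.t1, in lelo-2, with a main signal of 116.0 (60.4 in replicate 1 and 54.6 in replicate 2), whereas C12C8.t4 had no ranked summit in the list for both replicates and 21.2 in replicate 1 alone. The 15 lysine genes with anticodon CUU had 6 with a main peak, the highest being M01E5.t1 with 113.5 (48.7 and 64.2). Of the genes of this group without a ranked summit for both replicates, F56F4.t2 had 20.5 and 10.1 in the replicates' own lists, and F42H10.t1 and Y105C5A.t1, named after their values were seen, had no summit in any list.

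The 13 asparagine genes with anticodon GUU had 2 with a main peak, the higher being Y116F11A.t1 with a main signal of 83.6 (32.4 in replicate 1 and 46.0 in replicate 2), and R04F11.t1 was in none of the lists. The 11 aspartate genes with anticodon GUC had 3, led by F41A4.t1 with 137.2 (71.4 and 69.7), and W06G6.t1 was in none of the lists.

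The alanine and proline genes printed above show the same. ZK622.t1 had a main signal of 166.4 (89.3 in replicate 1 and 76.6 in replicate 2) and F15B9.t1 had 138.5 (77.8 and 64.2). M03A1.t1 had no main or ranked summit for both replicates, and its nearest summits in the replicates' own lists had 11.5 and 17.1, at 406 and 271 bp. Of all 8 members of this sequence 4 had a main peak. T23F1.t2 had a main signal of 117.6 (74.5 and 51.7), from a summit it shares with the lysine gene T23F1.t1. F02H6.t1 had only a ranked summit of 19.6 in replicate 2. The flanks of members with a main peak, 100 bp on each side, had a median of 40.75% G and C, compared with 37.5% in the other members.

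**Figure D5:**
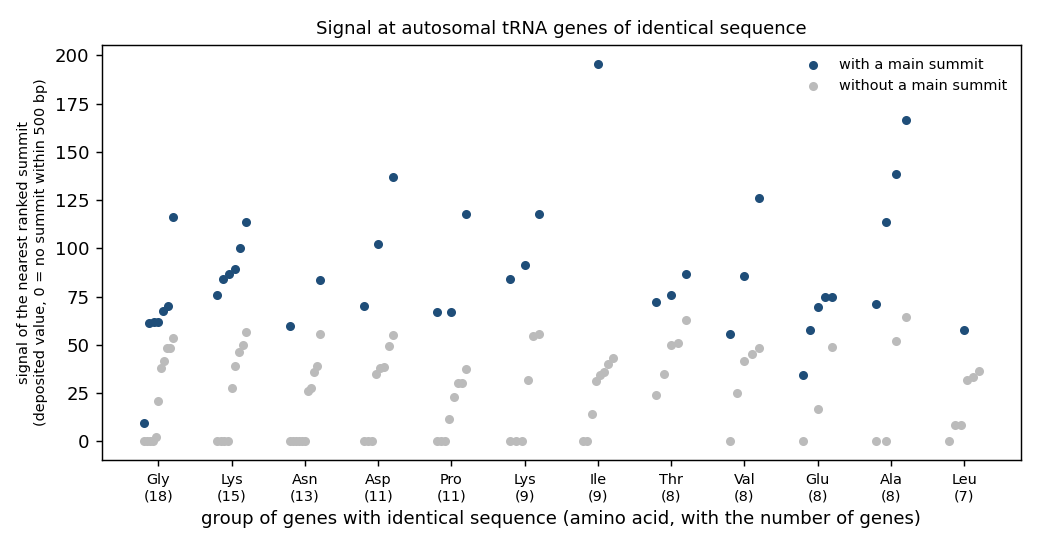
Each point is a gene in 1 of the 12 largest groups of autosomal tRNA genes with identical sequence that hold both genes with and genes without a main peak, and the vertical axis gives the signal of its nearest ranked summit for both replicates, with 0 for genes that have none within 500 bp. In each group the values spread widely, as in alanine, where genes of the same sequence run from 0 to 166.4, and a gene whose nearest ranked summit is a weaker one beside its main summit, such as the glycine gene at 9.62, stands low.

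The COE motif, the palindrome TCCC and GGGA with any 2 bases between them, is the site that COE factors bind. It was found within 100 bp of 1 of the 82 autosomal main summits at tRNA genes and of 13 of the 415 others (3.13%), compared with 0.0772% of 201 bp windows on the autosomes. Of all 336 members, 2 held it in the gene or its 100 bp flanks, and no background was counted for windows of that length. The bases within 100 bp of the summits at tRNA genes had a median of 47.8% G and C, those around other autosomal main summits 44.3%, and the median main signals were 86.1 and 78.5. Most of the windows at tRNA genes hold the gene itself, and its part in the difference in G and C was not tested.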

How the data were processed

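The values are peak lists on ce11 (WBcel235), per the labels, for 2 biological replicates of 1 group. Per the layout of the files, the authors deposited for each peak a signal (strength), a score (the irreproducible discovery rate, IDR, scaled to at most 1000) and other values, the offset of the summit and, in ranked lists, −log10 IDR. The aligner, the peak caller, what the signal measures and any exclusion list: not given in the sources used here. Per the deposited file listing, the thresholded lists derive from 1 further file that the ranked lists do not. The ranked lists hold 32 further columns for sub-lists that no label names, and these were not used.

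Summits were assigned to genes of Ensembl release 115 with Python 3.11.15, numpy 2.4.6 and scipy 1.17.1, and amino acids and gene sequences came from RefSeq and the WBcel235 genome. Settings were taken from exons of protein-coding genes, and pairs are tRNA genes within 500 bp. Motifs were searched on the gene's strand, the background on both strands. Fisher's exact tests (8, Benjamini-Hochberg, threshold 0.05) compared shares, and an exact binomial test their centring. Alternatives changed the distance, the list, the replicates, the members per locus and the patterns. The assignment and tests were tested on simulated data.

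Named were the 12 loci and the 10 host genes of highest main signal, the 3 members on each side of 500 bp, a pair of tRNA genes on each autosome and 4 groups of identical sequence with their highest member and 1 member without a ranked summit. Genes outside this rule are said to be so or were few. The members, lists and rule were chosen with earlier results of these data known.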

Additional observations from a re-analysis of the deposited data

How the results depend on the processing

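With replicate 1 or replicate 2 left out (the other's thresholded list alone), the share of members with a peak was 13.988% to 16.369%, and with the main peaks above the median signal 15.5%. Differences in share ran, with a replicate left out, from -14.6 to -8.27 percentage points against X, -0.389 to 2.95 against snoRNA genes, 8.43 to 13.2 against snRNA genes, -1.28 to 5.48 for introns, -2.27 to 2.63 for pairs, -4.96 to -0.772 for the host's strand, -1.35 to 8.54 for the B box and -10.9 to -9.31 for unique genes. Against X the call was gained without replicate 1, against snoRNA genes it was lost without either replicate, and for unique genes it was lost without replicate 2. With the upper main peaks the differences were -12.06 against X (adjusted p = 0.00248, Fisher's exact test), 1.10 against snoRNA genes, -9.69 for unique genes (adjusted p = 0.0982, Fisher's exact test), -3.16 for pairs and -1.06 for the host's strand. There the call against X was gained, and the calls against snoRNA genes and for unique genes were lost. For pairs the difference was -2.97 with summits within 100 bp and 16.5 within 1000 bp. Causes were not tested. Centring (67.96 points above even placement) and the difference from snRNA genes kept their call in every alternative run, and the share lay between 25% and 30.1% for distances of 100 to 1000 bp. Counting each sequence with its flanks gave no value, because no member was repeated. With no read counts, absence from a list sets no limit on binding, and no control library was used.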

Other observations

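The phenylalanine gene Y95D11A.4, intergenic on I, stood apart from the other members without a main peak. Its nearest ranked summit, with a global IDR past 0.01, had a ranked signal of 152.6, with 84.6 in replicate 1 and 70.6 in replicate 2, at 271 and 272 bp from the gene in the replicates' lists. It was in none of the thresholded lists, and was chosen after its values were seen. The 5 members with a main peak but without the A box pattern were all serine genes, at 3 summits. Most members without the pattern are serine genes, whether or not they have a main peak. Replicate 2 had the higher signal at the summits of ZC455.t1 (90.6 in replicate 1 and 110.4 in replicate 2) and of the F42A10 pair (63.5 and 84.6), and replicate 1 at that of K11H3.t2 (69.9 and 64.6).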
